A study of Mus musculus with 12 samples.

Results

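The genes described here are 10 growth genes that are imprinted or that act after birth in the same growth pathway: Igf2, H19, Dlk1, Meg3, Mest, Peg3, Plagl1, Grb10, Igf2r and Igf1. They were picked by name and not by a threshold on their values, but with earlier results of these data known. All 10 were found among the 34303 gene symbols of the deposited table. RNA sequencing was carried out on 12 libraries of total RNA from C57Bl6 mice, in 4 groups. Untreated back skin came from 4-week-old wild-type (WT) mice (n = 3) and from TAp63-/- mice of the same age (n = 3). Cutaneous squamous cell carcinoma (cSCC) came from WT mice (n = 2) and TAp63-/- mice (n = 4) older than 35 weeks that had received chronic ultraviolet exposure, 3 sessions a week of 2.5 kJ/m2 each. TAp63 denotes the isoforms of p63, a transcription factor of stratified epithelia, that carry the N-terminal transactivation domain. The labels do not say which construct removed it. Tissue, age and ultraviolet exposure differ together between skin and tumours. Sex, as read from the RNA, nearly does too, with all 6 skin libraries but only 1 tumour read as male. The parts of these factors in any tumour-skin difference therefore cannot be told apart.

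An imprinted gene is transcribed mainly from the copy inherited from 1 parent. Igf2, Dlk1, Mest, Peg3 and Plagl1 are expressed mainly from the paternal copy in most mouse tissues, H19 and Meg3 from the maternal copy, and Igf2r from the maternal copy outside the brain. Grb10 is maternally expressed in most tissues and paternally in neurons, and Igf1, which is not imprinted, is the main growth factor made under the control of growth hormone after birth. In many mouse tissues, transcripts of the imprinted growth genes are abundant before birth and fall during the first weeks of life. Gene-level RNA values do not separate the parental copies, so nothing below speaks to imprinting itself.

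The 10 genes lie on 6 chromosomes (mm10, coordinates as deposited with the start counted from 1). Igf2 (chromosome 7, 142650766 to 142666816, minus strand) and H19 (142575529 to 142578143, minus strand) are neighbours, 72.6 kb apart, that compete for shared enhancers on the other side of H19. Dlk1 (chromosome 12, 109452823 to 109463336, plus strand) and Meg3 (109541001 to 109571726, plus strand) are also neighbours, 77.7 kb apart. Mest is on chromosome 6 (30723547 to 30748455), Peg3 on chromosome 7 (6703892 to 6730421), Plagl1 on chromosome 10 (13090691 to 13131694), Igf1 on chromosome 10 (87858265 to 87937042), Grb10 on chromosome 11 (11930508 to 12038683) and Igf2r on chromosome 17 (12682406 to 12769664).

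Of these transcripts, 4 carry a microRNA hairpin: miR-483 in an intron of Igf2, miR-675 in an exon of H19, miR-770 in an exon of Meg3 and miR-335 in an intron of Mest. They are shown because the host RNAs measured here are also the precursors of these small regulators, on which the study's title turns. The mature sequences follow 5′ to 3′, from the RefSeq annotation of GRCm38.p6, with the seed (bases 2 to 8, the stretch that pairs with targets) in capitals.
miR-335-5p: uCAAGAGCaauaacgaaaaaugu
miR-335-3p: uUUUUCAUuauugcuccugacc
miR-675-5p: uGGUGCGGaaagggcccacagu
miR-675-3p: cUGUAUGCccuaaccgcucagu
miR-483-5p: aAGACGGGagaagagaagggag
miR-483-3p: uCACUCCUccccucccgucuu
miR-770-5p: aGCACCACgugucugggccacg
miR-770-3p: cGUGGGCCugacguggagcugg
No seed is shared among these 8 sequences. The deposited table lists the 4 hairpins at 0 in all 12 libraries, and a listed 0 in a table of long-RNA reads does not show that the small RNA is absent. The values below are those of the host transcripts.

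Mest and Igf1 are the 2 genes of the set that passed the test in a tumour-skin comparison, and the 250 bases before 1 annotated start of each are printed for that reason, from RefSeq GRCm38.p6, with every CG dinucleotide in capitals.
Mest, chr6:30737800-30738049, plus strand: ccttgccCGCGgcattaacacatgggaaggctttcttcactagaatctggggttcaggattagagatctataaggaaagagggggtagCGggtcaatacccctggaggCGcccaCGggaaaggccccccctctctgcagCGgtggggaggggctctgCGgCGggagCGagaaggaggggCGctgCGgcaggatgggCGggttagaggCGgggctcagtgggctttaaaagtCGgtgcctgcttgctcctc
Igf1, chr10:87860861-87861110, plus strand: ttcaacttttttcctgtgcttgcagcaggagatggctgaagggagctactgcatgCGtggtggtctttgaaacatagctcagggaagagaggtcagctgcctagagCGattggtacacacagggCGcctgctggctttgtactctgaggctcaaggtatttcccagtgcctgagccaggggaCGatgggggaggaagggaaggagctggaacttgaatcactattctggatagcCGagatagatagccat
The Mest stretch holds 14 CG dinucleotides and the Igf1 stretch 5. The imprint of Mest is carried by CG methylation at its promoter, whereas Igf1 has no imprint, and methylation was not measured here. Promoter windows of 300 bases were found for 9 of the 10 genes, 16 windows in all. Over 32851 windows of all genes the median was 7 CG dinucleotides, and the whole windows of these starts held 17 for Mest and 6 for Igf1. The windows of the other annotated Mest starts held 8 and 17, so the count depends on the start taken.

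Levels are given as FPKM, fragments per kilobase of transcript scaled to library size. The deposited values are on 1 common distribution in all 12 libraries and carry no read counts, so no counting interval can be given. At gene level Trp63 ran from 84.5 to 119 FPKM in skin and from 97.3 to 258 FPKM in tumours of both genotypes. It sums all p63 isoforms and therefore does not check the TAp63-/- label. Keratinocyte markers were present in all libraries, with a summed level of 5566 to 9723 FPKM in skin and 8778 to 23749 FPKM in tumours, and markers of wound and carcinoma keratinocytes summed to 428 to 1364 FPKM and 6728 to 28847 FPKM. Skin libraries also held much muscle RNA: 7 skeletal muscle markers summed to 5674 to 10964 FPKM in skin and 62.1 to 686 FPKM in tumours. The skin libraries were not alike. In TAp63-/- skin replicate 1 hair follicle markers summed to 10.3 FPKM, against 383 to 4530 FPKM in the other skin libraries. Adipocyte markers summed to 2574 FPKM in that replicate, against 439 to 1461 FPKM. By Xist and Y-linked genes, all 6 skin libraries and 1 tumour, TAp63-/- cSCC replicate 1, read as male. Whether libraries came from separate animals is not stated, so the p-values measure the spread between these samples.

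**Figure D1:**
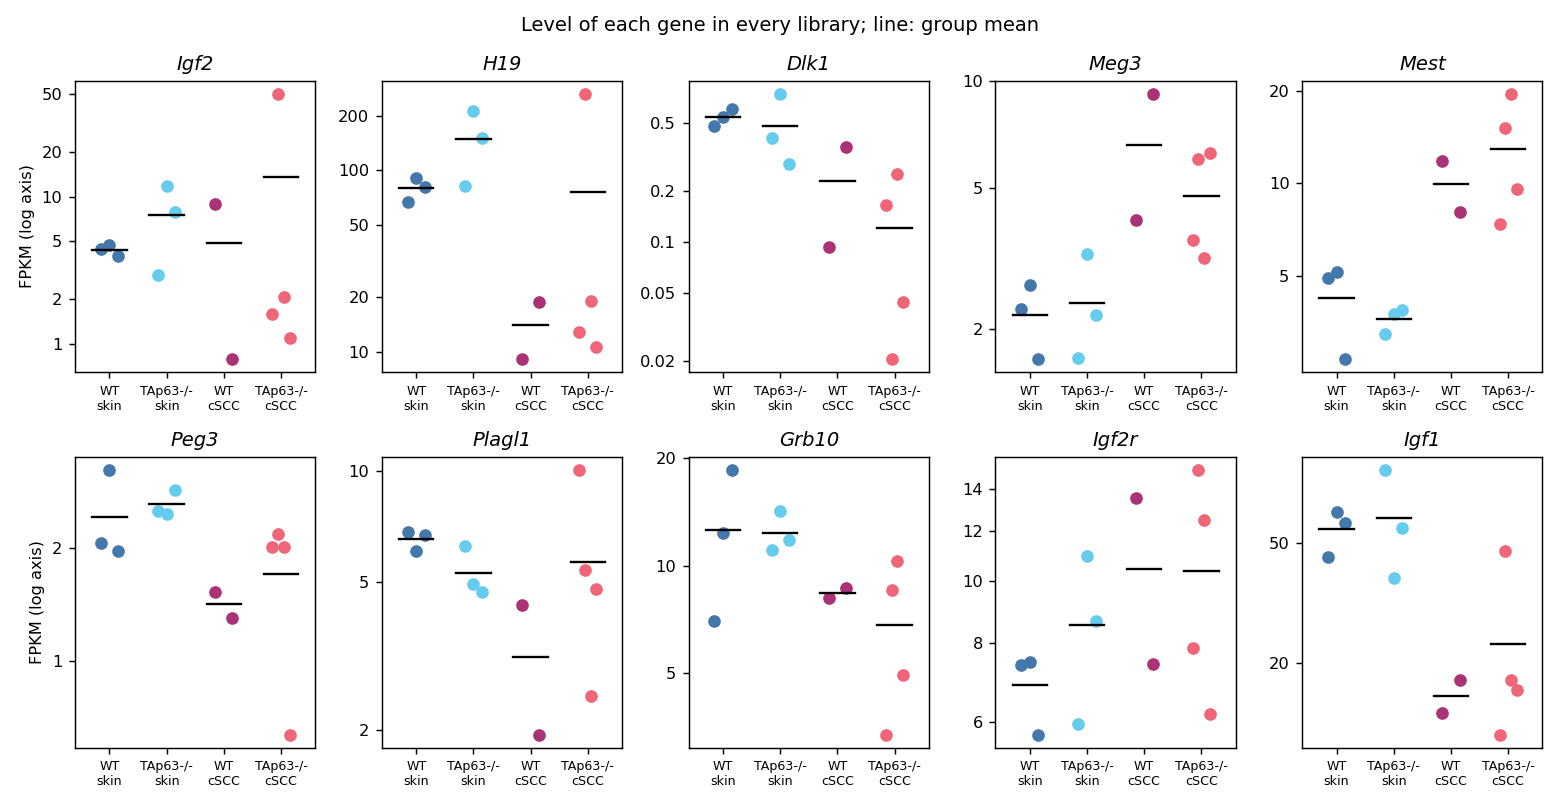
Level of each of the 10 genes in every library, in FPKM on a log axis, with 1 point per library and a line at the group mean. Mest is higher in all 6 tumours than in all 6 skin libraries, H19 and Igf1 are lower in 5 of 6 tumours, and TAp63-/- cSCC replicate 2 holds the highest H19 (262) and Igf2 (49.7).

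Igf1 was the member that fell in tumours of both genotypes. In WT skin it stood at 45.0, 63.1 and 58.2 FPKM, in TAp63-/- skin at 87.0, 38.1 and 55.9 FPKM, in WT cSCC at 13.6 and 17.6 FPKM and in TAp63-/- cSCC at 11.6, 46.9, 17.6 and 16.3 FPKM. The groups did not overlap in WT, and in TAp63-/- a single tumour, replicate 2, reached into the skin range. The group means were 55.4 ± 9.37 FPKM (SD, n = 3) and 60.3 ± 24.7 FPKM (SD, n = 3) in WT and TAp63-/- skin, against 15.6 ± 2.78 FPKM (SD, n = 2) and 23.1 ± 16.1 FPKM (SD, n = 4) in the tumours. WT skin thus averaged 3.55 times the WT tumours, and TAp63-/- skin 2.61 times the TAp63-/- tumours.

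On the log2(FPKM + 1) scale Igf1 fell by 1.76 (SE 0.49) in WT tumours, with an adjusted p of 0.0427 in limma. In TAp63-/- tumours it fell by 1.47 (SE 0.41), adjusted p 0.0232 in limma. Of the 9 members that passed the filter on low values, Igf1 was the 1 called in the WT comparison, beside a background of 11.4% of 14752 tested genes (4.66% higher, 6.77% lower). In the TAp63-/- comparison 2 of 9 were called, Mest higher and Igf1 lower, against 27.2% of all tested genes (13% higher and 14.2% lower). The share of members called was near the background in both genotypes. The WT call was lost when WT cSCC replicate 1 (adjusted p 0.233) or replicate 2 (adjusted p 0.0757) was left out, and with 5 other libraries left out. The TAp63-/- call was lost without TAp63-/- skin replicate 1 (adjusted p 0.102) or replicate 3 (0.0576), or without TAp63-/- cSCC replicate 3 (0.0507) or replicate 4 (0.0554). It was also lost with only the groups compared in the fit, and held in 17 of 22 alternatives.

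Fibroblasts, macrophages, adipocytes and muscle all make Igf1 in the body, and several of their markers moved with it. Fibroblast markers summed to 2409 to 8772 FPKM in skin and 793 to 2594 FPKM in tumours, and macrophage markers to 184 to 412 FPKM and 105 to 514 FPKM. Of 7 fibroblast markers 3 fell in WT tumours and 6 in TAp63-/- tumours. Of 7 tested skeletal muscle markers 6 and 7 fell, of 6 adipocyte markers 3 and 4, and of 6 macrophage markers 0 and 1. Of all tested genes 6.77% fell in WT tumours and 14.2% in TAp63-/- tumours. TAp63-/- cSCC replicate 2, the tumour with the highest Igf1, also had the highest fibroblast and macrophage sums among the 6 tumours, at 2594 and 514 FPKM. Of the 6 adipocyte markers Fabp4 was highest there among the tumours, at 2639 FPKM, and the other 5 were highest in WT cSCC replicate 2. The part of these cell types in the Igf1 values was not tested, and in whole tissue fewer cells of a type and less RNA per cell cannot be told apart.

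**Figure D2:**
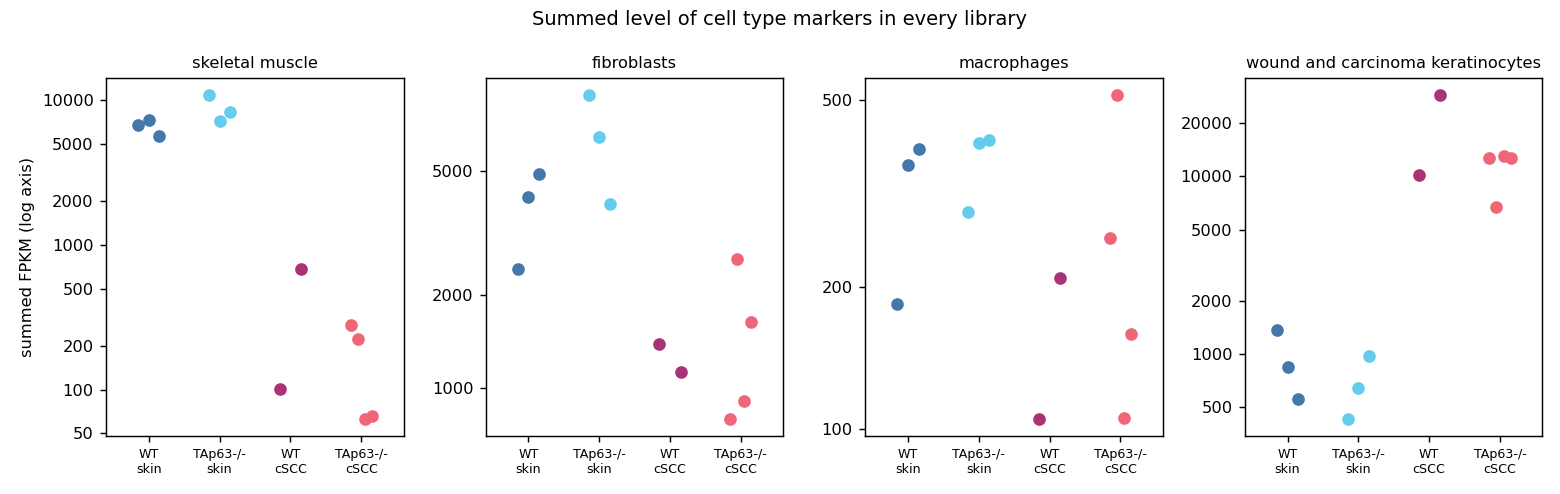
Summed FPKM of marker genes for skeletal muscle, fibroblasts, macrophages and wound or carcinoma keratinocytes in every library, on log axes, with 1 point per library. Muscle markers lie between 5674 and 10964 in skin and between 62.1 and 686 in tumours, and fibroblast markers between 2409 and 8772 in skin and between 793 and 2594 in tumours.

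Igf2, the fetal counterpart of Igf1, was low in skin and uneven among tumours. It measured 4.42, 4.72 and 3.94 FPKM in WT skin, and 2.93, 11.8 and 7.89 FPKM in TAp63-/- skin. The WT tumours had 8.84 and 0.788 FPKM and the TAp63-/- tumours 1.59, 49.7, 2.06 and 1.09 FPKM. A total of 4 tumours lay below every skin library, while TAp63-/- cSCC replicate 2 lay above all of them, so the tumour mean of 13.6 ± 24.0 FPKM (SD, n = 4) in TAp63-/- describes no single tumour. Igf2 did not pass the test in WT (log2 change -0.35, 95% interval -2.99 to 2.29) or in TAp63-/- (-0.51, -2.72 to 1.70). The intervals span changes of several-fold in both directions.

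The Igf2 gene overlaps Igf2as on the opposite strand, and whether the counting used strand is not stated, so their reads cannot be told apart. Igf2as was listed at 0.663 FPKM in TAp63-/- cSCC replicate 2 and at most 0.116 FPKM in the other 5 tumours. Igf1 exceeded Igf2, per transcript length, in 11 of 12 libraries, and the ratio of Igf1 to Igf2 was 0.944 in the remaining 1, TAp63-/- cSCC replicate 2. In skin this ratio ran from 3.23 to 29.7.

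Igf2r, the receptor that takes up IGF2 and delivers it to lysosomes for degradation, was present at similar levels in skin and tumours. It measured 7.38, 7.45 and 5.73 FPKM in WT skin, 5.96, 11.0 and 8.65 FPKM in TAp63-/- skin, 13.5 and 7.41 FPKM in WT cSCC and 7.86, 15.003, 12.5 and 6.17 FPKM in TAp63-/- cSCC. Tumours and skin overlapped in both genotypes, although WT cSCC replicate 1 and TAp63-/- cSCC replicates 2 and 3 lay above all 6 skin libraries. The log2 change was 0.50 in WT (95% interval -0.32 to 1.32) and 0.22 in TAp63-/- (-0.47 to 0.91), and neither passed. Airn, the antisense RNA that starts inside Igf2r and silences its paternal copy, ran from 1.32 to 3.76 FPKM in skin and from 1.03 to 4.78 FPKM in tumours, and its reads likewise cannot be separated from those of Igf2r without strand.

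Grb10, an adaptor that binds the insulin and IGF1 receptors and restrains their signal, was lowest on average in TAp63-/- tumours. It stood at 7.02, 12.3 and 18.6 FPKM in WT skin and at 11.1, 14.2 and 11.8 FPKM in TAp63-/- skin, against 8.12 and 8.69 FPKM in WT cSCC and 3.37, 8.56, 10.3 and 4.95 FPKM in TAp63-/- cSCC. All 4 TAp63-/- tumours lay below the 3 TAp63-/- skin libraries, while the WT groups overlapped. The log2 change in TAp63-/- was -0.87 (SE 0.35, adjusted p 0.0911 in limma). It passed without TAp63-/- cSCC replicate 3 (-1.08, adjusted p 0.0478).

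H19, a long noncoding RNA, was the most abundant member by FPKM in 8 of 12 libraries and varied most on the log2 scale. It measured 67.1, 91.3 and 81.1 FPKM in WT skin and 81.9, 212 and 151 FPKM in TAp63-/- skin. WT tumours had 9.20 and 18.9 FPKM, and TAp63-/- tumours 12.9, 262, 19.044 and 10.6 FPKM. A total of 5 tumours lay below every skin library, and 1, TAp63-/- cSCC replicate 2, lay above every other library. The log2 change was -2.49 in WT (SE 1.07, adjusted p 0.154 in limma) and -2.19 in TAp63-/- (SE 0.89, adjusted p 0.0917 in limma), and neither passed. Without TAp63-/- cSCC replicate 2 both did: H19 fell by 2.49 in WT tumours (adjusted p 0.00543 in limma) and by 3.23 in TAp63-/- tumours (adjusted p 0.000294 in limma). That single library thus decided the H19 call in both comparisons, in WT through the spread that all 12 libraries share in the fit.

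H19 and Igf2 were further compared library by library through the ratio of their FPKM. It was 15.2 to 27.9 in the 6 skin libraries, 8.12, 5.28, 9.24 and 9.73 in TAp63-/- tumours, and 1.04 and 24.0 in the WT tumours. The TAp63-/- tumours therefore all lay below the skin range, including replicate 2 in which both RNAs were high, and the WT tumours lay apart from each other. Several of these ratios rest on low Igf2: 0.788 FPKM in WT cSCC replicate 2 and 1.09 to 2.06 FPKM in TAp63-/- cSCC replicates 1, 3 and 4. With the depth unknown, their error cannot be given. WT cSCC replicate 1 was the library in which Igf2 and H19 stood at nearly the same level, 8.84 and 9.20 FPKM.

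**Figure D3:**
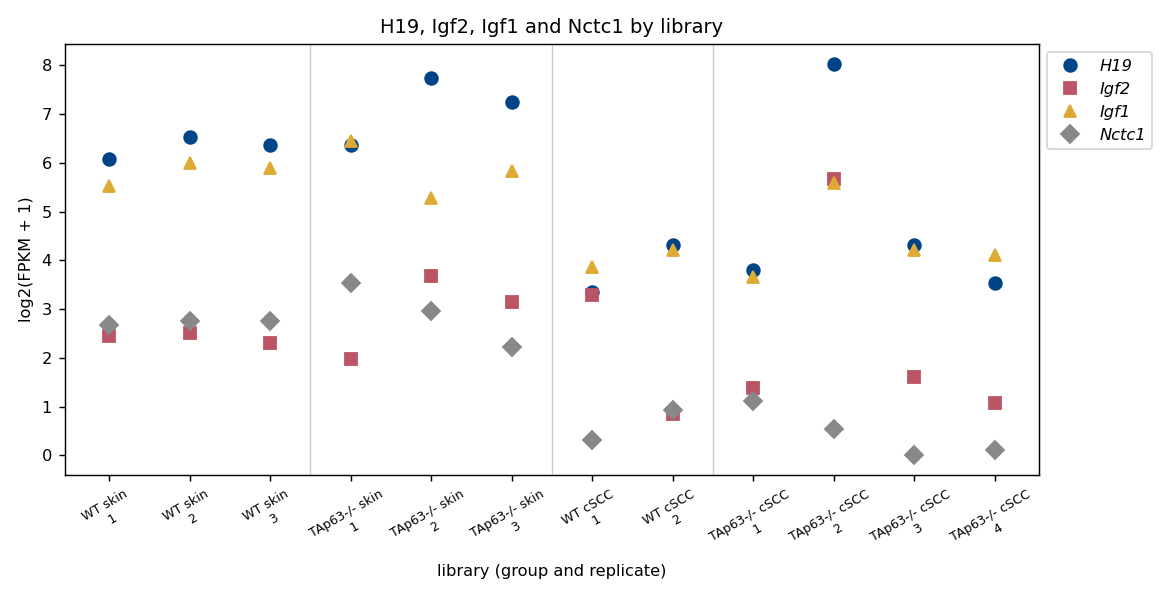
H19, Igf2, Igf1 and Nctc1, a noncoding RNA gene near H19, in each of the 12 libraries as log2(FPKM + 1). H19, Igf2 and Igf1 are all at their tumour maximum in TAp63-/- cSCC replicate 2, while Nctc1 stays low there (0.460 FPKM).

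TAp63-/- cSCC replicate 2 had 13.8 times the H19 of the next highest tumour, 5.62 times its Igf2 and 2.66 times its Igf1. Of the neighbours of the Igf2-H19 pair, named after their values were seen, some were at the tumours' highest there and others were not. Nctc1 was at 0.460 FPKM there against 0 to 1.17 FPKM in the other 5 tumours. The muscle genes Tnnt3 and Tnni2 were at 61.6 and 39.1 FPKM, within the tumours' range, and Mrpl23 was at 27.7 FPKM, the lowest of all 12 libraries. Lsp1, a leukocyte gene nearby, was at 60.6 FPKM against at most 20.4 FPKM in the other tumours, and Igf2as, which overlaps Igf2, was also highest there. Slc22a18, a maternally expressed transporter gene in the neighbouring imprinted cluster, was at 61.5 FPKM against at most 18.9 FPKM, and Igfbp4, which encodes a secreted binding protein of the insulin-like growth factors, at 252 FPKM against at most 77.5 FPKM. The summed satellite cell markers were the lowest of the 12 libraries in it, at 0.321 FPKM.

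Meg3, the maternally expressed noncoding RNA of the chromosome 12 cluster, was higher in most tumours. It stood at 2.27, 2.66 and 1.64 FPKM in WT skin, 1.65, 3.24 and 2.18 FPKM in TAp63-/- skin, 4.06 and 9.20 FPKM in WT cSCC and 3.55, 6.02, 3.17 and 6.27 FPKM in TAp63-/- cSCC. All tumours except TAp63-/- cSCC replicate 3 lay above the 6 skin libraries. The log2 change was 1.18 in WT (SE 0.36, adjusted p 0.0565 in limma) and 0.76 in TAp63-/- (SE 0.30, adjusted p 0.0829 in limma), and neither passed. Rian, a further noncoding RNA of the same cluster, did not run in parallel: its level was 4.51 to 5.86 FPKM in WT skin, 7.68 to 12.1 FPKM in TAp63-/- skin and 4.29 to 6.87 FPKM in the tumours.

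Dlk1, the paternally expressed transmembrane protein gene at the other end of that cluster, was below 1 FPKM in every library. It measured 0.476, 0.542 and 0.599 FPKM in WT skin, 0.407, 0.732 and 0.287 FPKM in TAp63-/- skin, 0.0930 and 0.360 FPKM in WT cSCC and 0.166, 0.0207, 0.251 and 0.0447 FPKM in TAp63-/- cSCC. A total of 5 tumours lay below every skin library, but with no library at 1 FPKM the gene did not enter the test. In a fit with no filter on low values, over 23400 genes, its log2 change was -0.34 in WT (adjusted p 0.204 in limma) and -0.39 in TAp63-/- (adjusted p 0.0486 in limma).

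Mest rose in TAp63-/- tumours and was the member with the cleanest separation of tumours from skin. It encodes a hydrolase-like membrane protein of the endoplasmic reticulum. Skin libraries stood at 4.91, 5.15 and 2.69 FPKM (WT) and 3.25, 3.76 and 3.88 FPKM (TAp63-/-). Tumours stood at 11.8 and 8.08 FPKM (WT) and 7.38, 15.2, 19.5 and 9.57 FPKM (TAp63-/-), so that all 6 exceeded all 6 skin libraries. Such separation over both genotypes together is not particular to Mest. Among the related genes described below, H13 and Stc1 were likewise higher in all tumours, and Ndn and Sgce lower. The TAp63-/- mean was 12.9 ± 5.47 FPKM (SD, n = 4) in tumours and 3.63 ± 0.339 FPKM (SD, n = 3) in skin, a ratio of 3.55. The log2 increase was 1.5 (SE 0.31, adjusted p 0.00511 in limma). In WT the mean was 9.93 ± 2.61 FPKM (SD, n = 2) against 4.25 ± 1.36 FPKM (SD, n = 3), and the log2 change of 1.07 (SE 0.37, adjusted p 0.0848 in limma) did not pass. The difference between the genotypes was itself not detected (interaction 0.43, 95% interval -0.63 to 1.48). The TAp63-/- call held with each library left out in turn (adjusted p 0.00224 to 0.0241) and ended with sex as a covariate (log2 change 0.86, adjusted p 0.187), a term that rests on 1 male tumour.

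Peg3 and Plagl1, which encode zinc-finger transcription factors, passed the test in neither tumour-skin comparison. Peg3 was at 2.07, 3.24 and 1.97 FPKM in WT skin, 2.53, 2.48 and 2.86 FPKM in TAp63-/- skin, 1.53 and 1.301 FPKM in WT cSCC and 2.01, 2.18, 2.01 and 0.633 FPKM in TAp63-/- cSCC. Within each genotype every tumour lay below every skin library, by margins that did not pass the test (log2 change -0.49, adjusted p 0.312 in WT and -0.47, adjusted p 0.184 in TAp63-/-, limma). Plagl1 was at 6.83, 6.06 and 6.69 FPKM in WT skin, 6.26, 4.97 and 4.72 FPKM in TAp63-/- skin, 4.34 and 1.95 FPKM in WT cSCC and 10.036, 5.39, 2.47 and 4.79 FPKM in TAp63-/- cSCC. Its WT tumours lay below WT skin. Of its TAp63-/- tumours 2 lay within the range of TAp63-/- skin, 1 above it and 1 below it. The comparisons gave log2 changes of -0.92 (adjusted p 0.163) and -0.03 (adjusted p 0.952) in limma.

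Counted over the 9 tested members, tumours and skin did not overlap for 6 in WT (Igf1, H19, Plagl1 and Peg3 lower, Meg3 and Mest higher) against 52.8% of all tested genes (27.3% higher and 25.5% lower). In TAp63-/- they did not overlap for 3 (Mest higher, Grb10 and Peg3 lower) against 34% of all (17.8% higher and 16.2% lower). The counts of tumours above or below all skin libraries of both genotypes, given for single members, were not made over all tested genes and have no such background. The median log2 change of the members was -0.44 in WT and -0.47 in TAp63-/-, beside 0.04 and 0.10 over all tested genes.

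**Figure D4:**
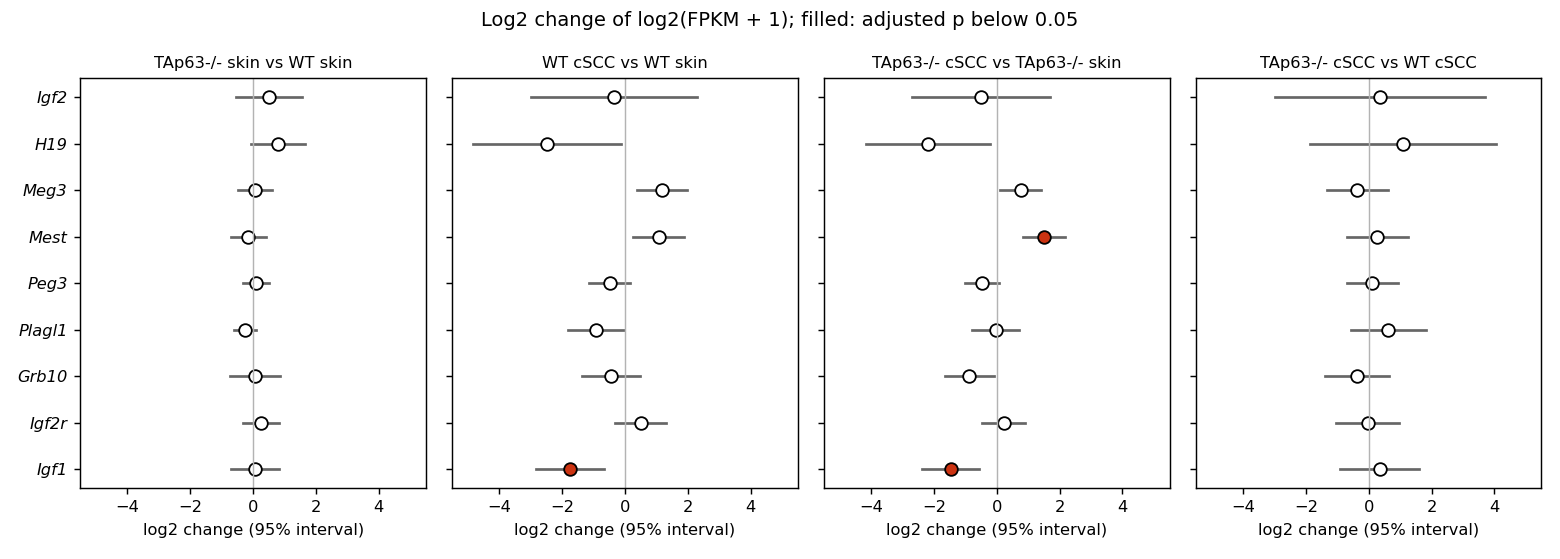
Log2 change of each tested member in 4 comparisons with its 95% interval, where filled points have an adjusted p below 0.05 in limma. Igf1 is filled in both tumour-skin comparisons, Mest in the TAp63-/- one, and none in either comparison of genotypes.

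The genotype comparisons within a tissue ask whether loss of TAp63 alone shifts these genes. In skin, 0 of 9 members passed in limma, with 0 at an unadjusted p under 0.05. Of all tested genes 0.0203% passed, and 5% had an unadjusted p under 0.05. H19 had the largest difference (log2 change 0.79, 95% interval -0.08 to 1.66): TAp63-/- skin replicates 2 and 3 exceeded all WT skin, and replicate 1, at 81.9 FPKM, lay within the WT range. Igf2 followed it, at 0.52 (-0.54 to 1.57). The interval for Igf1 (-0.71 to 0.82) and for Grb10 (-0.75 to 0.87) included changes of more than 1.5 times in either direction. Those of Peg3 (-0.32 to 0.51) and Plagl1 (-0.60 to 0.08) were narrower on the log2(FPKM + 1) scale. As this scale understates changes of low genes, they do not exclude changes of 1.5 times in FPKM. Ordered by group mean, WT and TAp63-/- skin were neighbours for most members and did not differ beyond their spread; the groups overlapped for all 9 tested members and for Dlk1, and did not overlap for 10.6% of all tested genes.

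Between tumours, 0 of 9 members passed in limma, with 0 at an unadjusted p under 0.05, and 0% of all tested genes passed, with 2.84% at an unadjusted p under 0.05. The tumour groups overlapped for all 9 members and did not overlap for 9.85% of all tested genes. Intervals were wide: -2.97 to 3.69 for Igf2, -1.88 to 4.07 for H19, -0.90 to 1.60 for Igf1 and -0.71 to 1.27 for Mest. The interaction, which tests whether the tumour-skin change differs between genotypes, called 0 of 9 members, with 0 at an unadjusted p under 0.05, against 0.0271% of all tested genes, of which 3.01% had an unadjusted p under 0.05. The largest estimate was for Plagl1 (0.89, 95% interval -0.27 to 2.05).

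The other imprinted genes were counted by the parental copy they are expressed from. Their counts are read against all tested genes, of which 4.66% rose and 6.77% fell in WT tumours and 13% rose and 14.2% fell in TAp63-/- tumours. Of 9 tested paternally expressed genes, 2 fell and none rose in WT tumours, and 3 fell and none rose in TAp63-/- tumours. Ndn, whose protein holds back proliferation, fell by 1.5 (adjusted p 0.00667) and by 2.10 (adjusted p 0.00011, both limma). Its level was 6.52 to 9.99 FPKM in skin and 1.17 to 2.97 FPKM in tumours. Sgce, which encodes epsilon-sarcoglycan of the dystrophin complex, fell by 1.34 (adjusted p 0.0215) and 1.41 (adjusted p 0.00298). Snrpn, which encodes a splicing factor, fell by 1.84 in TAp63-/- tumours (adjusted p 0.000206), and its change in WT was -0.60 (adjusted p 0.169). Nnat, a small membrane protein gene, stood at -2.59 in WT (adjusted p 0.0900), and Slc38a4, an amino acid transporter gene, at -1.83 in TAp63-/- (adjusted p 0.128). WT cSCC replicate 1 had 55.6 FPKM of Slc38a4, and no other library more than 8.32 FPKM. The median log2 change of the paternally expressed genes was -0.40 in WT and -1.33 in TAp63-/-, beside 0.04 and 0.10 over all genes. The 3 that fell in TAp63-/- tumours became, for example, 4 with array weights or with only the groups compared in the fit. With a filter of 5 FPKM they became 2.

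Of 13 tested maternally expressed genes, 1 rose and 0 fell in WT tumours, and 2 rose and 4 fell in TAp63-/- tumours. H13, which encodes signal peptide peptidase, rose by 0.80 (adjusted p 0.0366) and 0.77 (adjusted p 0.0104 in limma), from 27.9 to 31.3 FPKM in skin to 40.2 to 63.2 FPKM in tumours. Slc22a18 rose in TAp63-/- tumours by 1.70 (adjusted p 0.0151). Cdkn1c, which encodes the cyclin-dependent kinase inhibitor p57, fell by 1.55 (adjusted p 0.0058) in TAp63-/- and stood at -1.08 (adjusted p 0.0976) in WT. Osbpl5, a lipid-transfer protein gene, fell by 0.89 (adjusted p 0.00996). Slc22a3, an organic cation transporter gene, and Rian, named because they also passed, fell by 1.21 and 0.73. Phlda2, a placental growth inhibitor gene, was at 31.2 and 10.5 FPKM in WT cSCC against 0.507 to 5.24 FPKM in WT skin (log2 change 2.46, adjusted p 0.0549). The median change was -0.02 in WT and 0.10 in TAp63-/-. In TAp63-/- tumours the counts became 2 risen and 1 fallen without TAp63-/- skin replicate 1, 1 risen and 4 fallen without TAp63-/- skin replicate 3, 0 risen and 1 fallen with sex as a covariate, and 1 risen and 2 fallen with only the groups compared in the fit.

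Within the insulin-like growth factor axis around Igf1 and Igf2, the estimated falls of Igfbp5, Igfbp6 and Ghr were larger than those of either ligand in both genotypes. Differences between genes were not tested, and in WT Ghr (-1.86) lay close to Igf1 (-1.76, SE 0.49). Of 21 tested genes of the axis, 1 rose and 4 fell in WT tumours, where 4.66% of all tested genes rose and 6.77% fell. In TAp63-/- tumours 4 of the 21 rose and 5 fell, where 13% of all tested genes rose and 14.2% fell. Igfbp5 and Igfbp6, secreted binding proteins for the insulin-like growth factors, fell most. Igfbp5 was at 129 to 343 FPKM in skin and 3.92 to 36.0 FPKM in tumours, and fell by 3.16 (adjusted p 0.00891) in WT and fell by 4.54 (adjusted p 0.000137) in TAp63-/- tumours. Igfbp6 was at 34.6 to 77.1 FPKM in skin and 2.60 to 10.5 FPKM in tumours, and fell by 2.79 (adjusted p 0.00375) and 3.53 (adjusted p 0.0001). Ghr, the growth hormone receptor gene through which Igf1 is induced, fell by 1.86 (adjusted p 0.0347) and 2.62 (adjusted p 0.00105). Irs1, a docking protein gene downstream of the receptors, fell by 1.23 (adjusted p 0.0153) and 1.70 (adjusted p 0.000348). As for Igf1, the part of cell types in the changes of these genes and of the other imprinted genes was not tested.

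Socs2, a feedback inhibitor gene of growth hormone signalling, rose by 1.60 in WT tumours (adjusted p 0.0135 in limma) and stood at 0.00 in TAp63-/- tumours; the interaction of -1.60 did not pass (adjusted p 1). A further 5 genes passed in TAp63-/- tumours and are named for that reason. Igf2bp2 and Igf2bp1, which encode RNA-binding proteins named for their binding to Igf2 mRNA, rose by 2.07 (adjusted p 0.0288) and 0.99 (adjusted p 0.0467). Stc1 and Stc2, whose proteins inhibit the proteases that free growth factors from binding proteins, rose by 1.28 and 1.17, and Stat5b, a transcription factor gene acting below the growth hormone receptor, fell by 1.10. Igf1r, the receptor of both ligands, was at 6.03 to 7.49 FPKM in skin and 5.45 to 15.6 FPKM in tumours, with log2 changes of 0.54 (adjusted p 0.401) and 0.31 (adjusted p 0.507). The median change of the axis was -0.19 in WT and 0.00 in TAp63-/-. In TAp63-/- tumours 4 risen genes of the axis became 2 without TAp63-/- cSCC replicate 1 or 3 or without any 1 of the 3 TAp63-/- skin libraries, 2 with a pseudocount of 5, with a filter of 5 FPKM or with no filter, and 1, with 3 fallen, with sex as a covariate.

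The small WT counts of all 3 lists changed with several libraries. The 2 paternally expressed genes that fell in WT tumours became 0 without WT cSCC replicate 1 and 1 without any 1 of the 3 WT skin libraries or with sex as a covariate, and 1 rose beside them without WT cSCC replicate 2. They became 3 without TAp63-/- skin replicate 1 or with no filter on low values. The 1 maternally expressed gene became 0 without WT cSCC replicate 1, without any 1 of the 3 WT skin libraries, without TAp63-/- skin replicate 2 or 3, or with sex as a covariate. It became 2 without WT cSCC replicate 2 or TAp63-/- cSCC replicate 2 or 3 or with a pseudocount of 5, 2 risen and 1 fallen without TAp63-/- skin replicate 1, and 0 risen and 2 fallen with only the groups compared in the fit. In the axis 1 risen and 4 fallen genes became 0 and 1 without WT cSCC replicate 1 or with sex as a covariate, 3 and 3 without WT cSCC replicate 2, 2 and 3 with array weights, 2 and 4 with a pseudocount of 0.1, and 1 and 2 without WT skin replicate 2 or 3. They became 1 and 3 without WT skin replicate 1 or with no filter on low values.

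**Figure D5:**
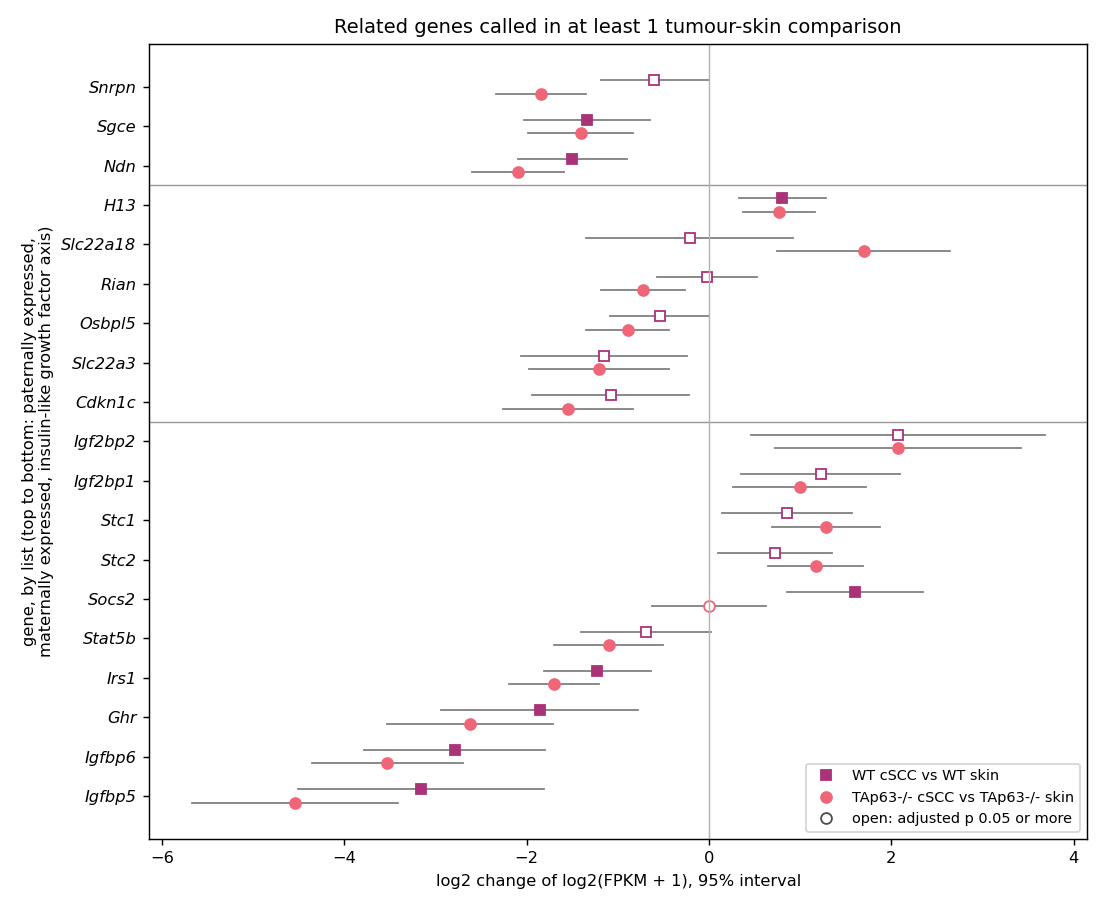
Log2 change with its 95% interval for the genes of the 3 related lists that passed the test in at least 1 tumour-skin comparison, squares for WT and circles for TAp63-/-, filled where the adjusted p is below 0.05 in limma. Ndn, Sgce, H13, Irs1, Ghr, Igfbp6 and Igfbp5 are filled in both genotypes, and Igfbp5 lies farthest from 0 (-3.16 and -4.54).

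In the genotype comparisons and the interaction 0 genes of these lists passed in limma. In skin 2 of 13 maternally expressed genes had an unadjusted p under 0.05, Rian (0.82, adjusted p 0.923) and Slc22a18 (-0.83, adjusted p 0.923), and 0 of the other 2 lists. The smallest p among paternally expressed genes were those of Airn (0.54) and Slc38a4 (0.31), and in the growth factor axis those of Igfbp5 (0.61) and Pappa2 (-0.48). Rian did not overlap between the skin groups, and neither did Slc22a18, as for 10.6% of all tested genes. Between tumours the smallest were Snrpn (-1.17) and Slc38a4 (-2.33), Phlda2 (-1.51) and Slc22a18 (1.08), and Socs2 (-1.20) and Ghr (-1.0), with 1, 0 and 2 genes at an unadjusted p under 0.05 in the 3 lists. In the interaction they were Snrpn (-1.24) and Slc38a4 (-2.64), Slc22a18 (1.91) and Rian (-0.71), and Socs2 (-1.60) and Igfbp5 (-1.38), with 1 gene at an unadjusted p under 0.05 in each list.

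Finally, the genes whose profile over the 12 libraries was most like each member were read off as the smallest root mean square difference of centred log2(FPKM + 1) values, among 9058 or 9059 genes with a mean of at least 5 FPKM. These differences are descriptions, and the tissue contrast that all libraries share enters every one of them. Mest was nearest to Orai2 (0.19), Wdr1 (0.20) and Smurf1 (0.24), beside its own spread of 0.76 about its mean. Igf1 was nearest to Cdk14 (0.26), Hsd17b11 (0.28) and Ptp4a3 (0.31), with a spread of 0.93. For H19 the nearest were Cd55 (0.57), Fgf13 (0.64) and Osr2 (0.69), with a spread of 1.61, and for Igf2 they were Sfrp2 (0.67), Fam107b (0.74) and Dpysl3 (0.75), with a spread of 1.28. Meg3 was nearest to Mxd1 (0.24), Igf2r to Rcn2 (0.16), Plagl1 to Zfp362 (0.25) and Grb10 to C1qtnf2 (0.28).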

How the data were processed

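TopHat2 2.0 alignments and Cufflinks 2.0 on mm10 gave the table, per the submitters' processing notes. FPKM as the unit of the deposited values was inferred from Cufflinks and from the values. At least 99.98% of sorted values above 1 FPKM lay within 1% of common values across the 12 libraries, so quantile normalization by the authors was inferred, and depth is unknown. Values of 272 symbols with several entries were summed. The fit took 14752 genes (1 FPKM or more in 2 or more libraries) as log2(FPKM + 1) in limma 3.58.1 (R 4.3.3, variance trend, two-sided), with Benjamini-Hochberg adjustment over all of them and calls at an adjusted p below 0.05. This scale understates changes of low genes. Genotype comparisons used the 6 libraries of a tissue, and tumour-skin comparisons and the interaction all 12. The procedure was tested on simulated data. The members, the 3 related lists (63 genes, 61 analysed) and the marker lists were chosen with earlier results of these data known. From each list the 4 genes with the smallest p were named where any passed, otherwise 2. Kcnq1ot1, Peg13 and the muscle marker Acta1 were not analysed here. Alternatives changed the pseudocount (0.1, 5), the filter, the scaling, the entry taken, the trend, array weights, the libraries in the fit and a sex term, or left out each library.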

Additional observations from a re-analysis of the deposited data

Results flagged for a closer look

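Among the 4 TAp63-/- tumours, 29 named genes were examined for a library far from the rest, by the gap to the nearest other library as a share of the range, and 5 stood out, 4 of them among the 10 members. About 1 in 20 groups is marked by chance if values are normally distributed. The gaps were taken on FPKM and not on the log2 scale, so that rate may not hold here. The share marked over all tested genes was not counted, so the 5 have no such background. Genes of 1 library are also not independent. TAp63-/- cSCC replicate 2 stood out for Igf2 (49.7 FPKM), H19 (262 FPKM), Igf1 (46.9 FPKM) and Slc22a18 (61.5 FPKM), all above the other 3 tumours. Of these, Igf1 lay only just past the limit for standing out. TAp63-/- cSCC replicate 4 stood out for Peg3 (0.633 FPKM), below the other 3. The same replicate 2 had the highest fibroblast and macrophage marker sums of the 6 tumours and the lowest keratinocyte sums. The part of these in its Igf2, H19 and Igf1 levels was not tested.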

How the results depend on the processing

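No paired analysis was possible because the labels number no replicates across groups. In WT cSCC against WT skin, the count of 1 member called became 0 with no filter on low values, 0 with sex as a covariate and 2 with only the groups compared in the fit, and lay between 0 and 2 when 1 library was left out. In TAp63-/- cSCC against TAp63-/- skin, the count of 2 became 5 with array weights and 1 with only the groups compared, and lay between 1 and 3 when 1 library was left out. Of 868 alternatives for a single member 796 kept direction and call, 15 lost the call, 9 gained it and 48 changed sign. None of the 48 passed the threshold or belonged to a called value. With array weights the log2 change took the other sign for Peg3 (-0.092) and Igf1 (-0.21) in skin, Igf2r (-0.15) in TAp63-/- tumour against skin, Igf2 (-0.27) and Peg3 (-0.16) between tumours, and H19 (-0.44) and Peg3 (-0.068) in the interaction. With sex as a covariate it did so for Plagl1 in WT (0.21) and TAp63-/- (0.81) and Igf2r in TAp63-/- (-0.069) between tumour and skin, Igf2r (0.066) between tumours, and Igf2 (0.20) and Peg3 (-0.045) in the interaction. With a pseudocount of 5 it was 0.0059 for Plagl1 in TAp63-/- tumour against skin, and with 0.1 it was -0.010 for Peg3 in the interaction.

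Leaving out 1 library at a time accounted for 33 of the sign changes. In skin the log2 change ran from -0.12 to 0.22 for Meg3, -0.28 to 0.37 for Grb10 and -0.24 to 0.34 for Igf1. Between tumour and skin it ran from -1.58 to 0.88 for Igf2 in WT and -0.32 to 0.24 for Plagl1 in TAp63-/-. Between tumours it ran from -0.87 to 1.59 for Igf2, -0.87 to 0.14 for Meg3, -0.43 to 0.36 for Igf2r and -0.048 to 0.59 for Igf1. In the interaction it ran from -1.39 to 1.07 for Igf2, -0.74 to 0.78 for H19, -0.93 to 0.081 for Meg3, -0.14 to 0.25 for Peg3, -0.68 to 0.11 for Igf2r and -0.10 to 0.59 for Igf1. The cause was not tested. Leaving out 1 of 2 WT tumours assumes that the other varies like the remaining groups. The unknown depth limits what can be said of low genes such as Dlk1.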
